A study of Mus musculus with 6 samples.

Results

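The genes of insulin and insulin-like growth factor (IGF) signalling described here are a set of 10, named by symbol and picked out of the 19251 genes of the deposited count table: the ligands Igf1 and Igf2, the binding proteins Igfbp2 and Igfbp5, the receptors Insr and Igf1r, the docking proteins Irs1 and Irs2, the PI3-kinase subunit Pik3r1 and the kinase Akt2. All 10 were found, and all 10 passed the filter on low counts. RNA came from the substantia nigra, where the dopamine neurons lost in Parkinson's disease lie, and the study asked how intermittent fasting acts on midbrain signalling in a mouse model of that disease. The fasting group (3 libraries) was made up of C57BL/6 mice that had food withheld for 24 hours on 3 days of each week over 10 weeks. The ad libitum group (3 libraries) was made up of C57BL/6 mice with free access to food over the same 10 weeks, moved between cages at the same times. Both groups carried rAAV-A53T-aSynuclein, a recombinant adeno-associated virus bearing the A53T form of human alpha-synuclein, a mutant form that causes inherited Parkinson's disease, and both diets began 2 weeks after the surgery. No group without the vector was analysed here, so the values bear on diet in animals that all carry it. The sources used here do not say which promoter the vector holds, how old the mice were, how long after a fast they were killed or whether each library is 1 animal.

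Insulin and the IGFs bind receptor tyrosine kinases of a shared family, the insulin receptor and the IGF-1 receptor. The active receptors phosphorylate IRS docking proteins, which recruit PI3-kinase through its regulatory subunits. The lipid signal that PI3-kinase makes activates the AKT kinases, and AKT in turn keeps FOXO transcription factors out of the nucleus and promotes protein synthesis through mTOR. IGF-binding proteins hold the IGFs outside the cell and set how much ligand reaches the receptors. In the brain the pathway is known for supporting neuron survival, glial growth and the sensing of nutrient state, and a fast lowers circulating insulin and IGF-1.

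Total estimated counts ran from 42990234 to 46594066 in the fasting libraries and from 46337950 to 48179706 in the ad libitum libraries. Levels are given as CPM, the count of a gene relative to the TMM-scaled library total, and fold changes are on the log2 scale, fasting minus ad libitum. Dopamine neuron markers were present in all libraries. Th was at 93.7 to 189 CPM under fasting and 86.3 to 236 CPM ad libitum. Slc6a3 was at 180 to 403 CPM under fasting and 240 to 653 CPM ad libitum. How much neighbouring tissue each library held was not tested. The ad libitum libraries differed more among themselves than the fasting libraries did. Ad libitum replicate 2 stood apart with the highest sums of cholinergic neuron markers, 95.1 CPM against at most 19.4 CPM elsewhere, and of hypothalamic neuron markers, 519.8 CPM against at most 147 CPM elsewhere. Ad libitum replicate 3 had the highest sums of dopamine neuron markers, 1947 CPM, and of erythroid markers, 1737 CPM.

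None of the 10 genes passed the test of fasting against ad libitum feeding, and Akt2 and Pik3r1 came closest, both with lower levels in the fasting libraries. The kinase AKT2 is closely tied to insulin-stimulated glucose uptake, and p85 alpha, the main product of Pik3r1, is the regulatory subunit that docks PI3-kinase on IRS proteins. edgeR's quasi-likelihood test (two-sided) was run over 19109 genes with Benjamini-Hochberg adjustment, and calls were made where the adjusted p was below 0.05. It called 0 of the 10 genes, beside 95 genes, or 0.497%, of the whole table. At an unadjusted p below 0.05 it gave 2 of the 10, Akt2 and Pik3r1, both lower, beside 20.4% of all tested genes in either direction and 11.6% lower, so their share is near that of the table. DESeq2 called 2 of the 10, the same pair, beside 7.4% of all genes in either direction and 4.51% lower. limma-voom called 0 of the 10, beside 0.167%, and so did edgeR with the replicate number as a block, beside 1.49% in either direction and 1.16% lower. Without ad libitum replicate 1 edgeR called Akt2 (adjusted p = 0.0223) and Pik3r1 (adjusted p = 0.0424), where 6.18% of all genes were called in either direction and 3.89% lower. The median log2 fold change of the 10 genes was -0.11, with 3 above 0 and 7 below, and the median of all tested genes was -0.005.

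**Figure D1:**
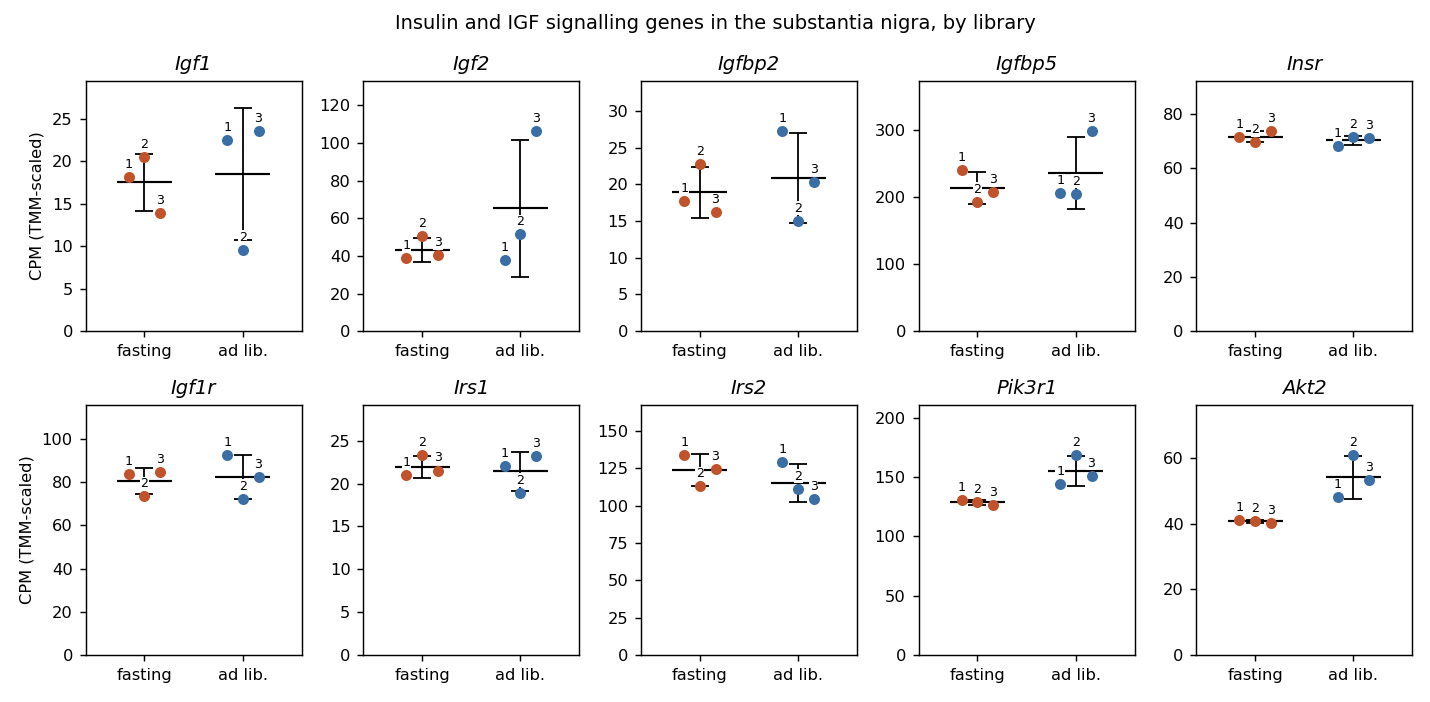
CPM after TMM scaling (vertical axes, from 0) of the 10 insulin and IGF signalling genes in the fasting libraries (orange) and the ad libitum libraries (blue), each point a library marked with its replicate number, bars the mean ± SD of 3. The fasting points lie below all ad libitum points for Pik3r1 and Akt2, and the groups overlap for the other 8 genes.

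Akt2 (ENSMUSG00000004056) was at 41.0, 40.9 and 40.2 CPM in fasting replicates 1, 2 and 3, against 47.9, 60.9 and 53.4 CPM in ad libitum replicates 1, 2 and 3. All 3 fasting libraries lay below all 3 ad libitum libraries, and they lay within 1.02-fold of each other, against 1.27-fold among the ad libitum libraries. The log2 fold change was -0.41 with an SE of 0.09 and a 95% interval of -0.62 to -0.20, or 0.752-fold (edgeR adjusted p = 0.0785). Across all settings tried the fold change stayed between -0.49 and -0.32, and the adjusted p ran from 0.00569 to 0.299. About 13.3% of the transcript sequence of Akt2, in words of 31 bases, also occurs in other genes, mainly the pseudogene Akt2-ps, so part of its count could be split with that copy.

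Pik3r1 (ENSMUSG00000041417) was at 131, 129 and 126 CPM in fasting replicates 1, 2 and 3, against 144, 169 and 151 CPM in ad libitum replicates 1, 2 and 3. The groups did not overlap, and ad libitum replicate 2 was the highest library, as it was for Akt2. The log2 fold change was -0.27 with an SE of 0.07 and a 95% interval of -0.43 to -0.10, or 0.831-fold (edgeR adjusted p = 0.104). The adjusted p ran from 0.0276 to 0.339 over the settings tried, with calls by DESeq2 and without ad libitum replicate 1. Akt2 and Pik3r1 are the 2 of 10 genes whose groups did not overlap, beside 27.5% of all tested genes. Both lay lower under fasting, beside 15.0%, and 0 of 10 lay wholly above, beside 12.5%. Gm36638 overlaps Pik3r1 on the same strand.

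Akt2 and Pik3r1 varied together over the 6 libraries, with a Pearson correlation of log2 CPM of 0.995, and of 0.976 after each group was centred on its own mean. Many genes share that profile: 1031 of 15552 other genes with a mean of at least 1 CPM had a correlation of at least 0.9 with Akt2, and 887 with Pik3r1. The genes most like Akt2 were Hepacam (0.998), a glial adhesion molecule, Tcf12 (0.997), a transcription factor, and Add3 (0.997), a protein of the membrane skeleton. The genes most like Pik3r1 were Fyb (0.999), an adaptor of immune cells, Agps (0.999), an enzyme of ether lipid synthesis, and Smurf2 (0.998), a ubiquitin ligase. With 6 libraries and so many genes such values are a description only, and the points share library, depth and cell make-up.

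The stretches upstream of Akt2 and Pik3r1 are shown because in these members the groups did not overlap. The 250 bases before the annotated start farthest upstream are given 5′ to 3′ from RefSeq (build GRCm38.p6), with the GC box GGGCGG on either strand in capitals. The Akt2 stretch is chr7:27591302-27591551 on the plus strand and the Pik3r1 stretch is chr13:101768218-101768467 on the minus strand.
Akt2: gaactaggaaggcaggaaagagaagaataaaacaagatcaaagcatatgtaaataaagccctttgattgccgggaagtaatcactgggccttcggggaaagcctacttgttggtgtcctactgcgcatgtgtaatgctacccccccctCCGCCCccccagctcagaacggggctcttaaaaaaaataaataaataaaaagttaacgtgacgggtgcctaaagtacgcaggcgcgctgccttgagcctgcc
Pik3r1: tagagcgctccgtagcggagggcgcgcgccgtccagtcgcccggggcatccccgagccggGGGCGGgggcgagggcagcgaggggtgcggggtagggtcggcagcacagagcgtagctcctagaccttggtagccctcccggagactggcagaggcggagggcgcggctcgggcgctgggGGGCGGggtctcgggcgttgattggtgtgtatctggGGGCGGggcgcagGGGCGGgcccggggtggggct
The Akt2 stretch held 1 GC box and was 48.8% G or C. The Pik3r1 stretch held 4 GC boxes and was 76.4% G or C. Of the 10 genes, 9 had starts in the RefSeq table, 17 starts in all, and 8 of the 17 held a GC box, against 32.7% of 32851 starts of all genes. The FOXO motif TGTTTAC was found on neither strand in any of the 17 windows, and 3.17% of all windows held it. A TATA box, TATAAA on either strand, was found in 1 of the 17, at the downstream start of Pik3r1, and in 12.4% of all windows. The motifs were counted apart from each other, so a base may lie in more than 1 match.

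Both receptors overlapped between diets, and Insr was the steadiest gene of the set. Insr (ENSMUSG00000005534), the insulin receptor, was at 71.5, 69.8 and 73.8 CPM in fasting replicates 1, 2 and 3, against 68.2, 71.5 and 71.2 CPM in ad libitum replicates 1, 2 and 3. The groups overlapped, and all 6 libraries lay within 1.08-fold of each other. The difference was 0.03 on the log2 scale with a 95% interval of -0.09 to 0.14 (edgeR adjusted p = 0.783), so the interval holds changes of up to 1.10-fold higher and down to 0.941-fold under fasting. Igf1r (ENSMUSG00000005533), the IGF-1 receptor, was at 83.7, 73.6 and 84.8 CPM in fasting replicates 1, 2 and 3, against 92.8, 72.3 and 82.3 CPM in ad libitum replicates 1, 2 and 3. The highest and the lowest library were both ad libitum. The difference was -0.03 with a 95% interval of -0.27 to 0.21 (edgeR adjusted p = 0.890).

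The docking proteins also overlapped between diets. Irs2 (ENSMUSG00000038894), whose transcription is known to go up when insulin is low, was at 134, 113 and 124 CPM in fasting replicates 1, 2 and 3, against 129, 111 and 104 CPM in ad libitum replicates 1, 2 and 3. The difference was 0.11 with a 95% interval of -0.13 to 0.34 (edgeR adjusted p = 0.587), so a rise of more than 1.27-fold lies outside the interval. Irs1 (ENSMUSG00000055980) was at 21.0, 23.4 and 21.5 CPM in fasting replicates 1, 2 and 3, against 22.1, 18.9 and 23.3 CPM in ad libitum replicates 1, 2 and 3. Its lowest library was ad libitum replicate 2, and the rest lay between 21.0 and 23.4 CPM. The difference was 0.04 with a 95% interval of -0.18 to 0.25 (edgeR adjusted p = 0.860).

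The ligands were the most variable members. Igf2 (ENSMUSG00000048583), an imprinted growth factor expressed in the adult brain mainly in the meninges and choroid plexus, was at 38.7, 50.6 and 40.3 CPM in fasting replicates 1, 2 and 3, against 37.9, 51.5 and 106 CPM in ad libitum replicates 1, 2 and 3. Ad libitum replicate 3 alone stood high, and the other 5 libraries lay between 37.9 and 51.5 CPM. The log2 fold change of -0.59 (95% interval -1.63 to 0.44, edgeR adjusted p = 0.476) rested on that library and was -0.05 without it. About 61.9% of the sequence of Igf2 also occurs in the overlapping gene Gm49394, so its value is uncertain. The gene Igf2os, which lies on the other strand, was also highest in ad libitum replicate 3, with 8 to 9 counts in the fasting libraries and 9, 11 and 24 counts in ad libitum replicates 1, 2 and 3. The sources used here do not say whether counting used strand, and without it reads of the pair cannot be told apart.

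Igf1 (ENSMUSG00000020053), made in the brain by neurons and glia, was at 18.2, 20.6 and 13.9 CPM in fasting replicates 1, 2 and 3, against 22.5, 9.56 and 23.6 CPM in ad libitum replicates 1, 2 and 3. Ad libitum replicate 2 was the lowest library and the other ad libitum libraries the highest, so all fasting values lay inside the ad libitum range. The difference was -0.08 with a 95% interval of -0.99 to 0.83 (edgeR adjusted p = 0.923), wide enough to hold a 1.78-fold rise and a fall to 0.503-fold. It was -0.40 without ad libitum replicate 2 (edgeR adjusted p = 0.270) and 0.13 without ad libitum replicate 3.

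Igfbp5 (ENSMUSG00000026185), a binding protein that attaches to the matrix, was at 240.1, 193 and 207 CPM in fasting replicates 1, 2 and 3, against 206, 205 and 299 CPM in ad libitum replicates 1, 2 and 3. As with Igf2, ad libitum replicate 3 was the highest library. The difference was -0.15 with a 95% interval of -0.56 to 0.26 (edgeR adjusted p = 0.665), and 0.06 without that library. Igfbp2 (ENSMUSG00000039323), a binding protein abundant in cerebrospinal fluid, was at 17.7, 22.8 and 16.2 CPM in fasting replicates 1, 2 and 3, against 27.2, 15.1 and 20.4 CPM in ad libitum replicates 1, 2 and 3. The groups overlapped, with ad libitum libraries at both ends of the range. The difference was -0.15 with a 95% interval of -0.73 to 0.44 (edgeR adjusted p = 0.770), and 0.09 without ad libitum replicate 1.

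The spread between libraries differed widely among the members. The highest of the 6 libraries was 2.81 times the lowest for Igf2, 2.46 times for Igf1 and 1.81 times for Igfbp2, and 1.08 times for Insr, where the median of 15220 genes at 1 CPM or more was 1.30 times. In 9 of the 10 members the coefficient of variation was smaller among the fasting libraries than among the ad libitum libraries, Insr being the exception, and the same held for 70.2% of those 15220 genes. For Akt2 the coefficient was 1.07% under fasting and 12.1% ad libitum. Over the 45 pairs of members the correlation across libraries had a median of -0.003, with 22 pairs above 0. Next to Akt2 and Pik3r1, the highest were Igf1 with Irs1 (0.888) and Igf1 with Igfbp2 (0.824), and the lowest was Igfbp2 with Insr (-0.87).

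**Figure D2:**
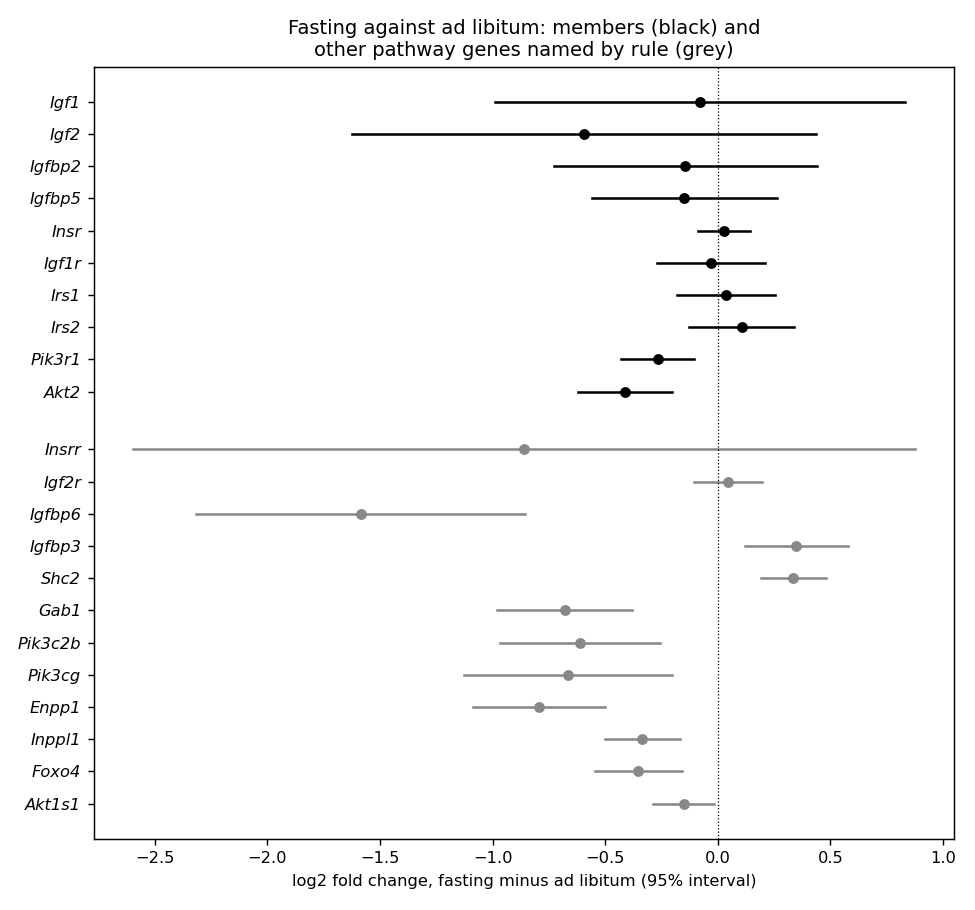
Log2 fold change, fasting minus ad libitum (horizontal axis), with its 95% interval from edgeR, 3 libraries per diet. Black marks the 10 insulin and IGF signalling genes, and grey marks the genes of smallest p in each list of other pathway genes. Of the black intervals those of Pik3r1 (-0.43 to -0.10) and Akt2 (-0.62 to -0.20) leave out 0, and no gene shown was called after adjustment over all genes.

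Cell type markers differed beside some of these genes. Of all tested genes 15.0% lay wholly below and 12.5% wholly above, and 20.4% had an unadjusted edgeR p below 0.05. edgeR called 0.497% of all genes, 0.351% lower, DESeq2 called 7.4% and limma-voom 0.167%. Microglia markers were the plainest: 10 of 10 had fasting libraries wholly below the ad libitum libraries, 2 of 10 were called by edgeR, and their summed level was 295 to 303 CPM under fasting and 378 to 519 CPM ad libitum. Of 10 oligodendrocyte markers 9 lay wholly below and 2 were called, with sums of 9809 to 12291 CPM under fasting and 13927 to 18950 CPM ad libitum. DESeq2 called 10 of the 10 microglia and 9 of the 10 oligodendrocyte markers, all lower, and limma-voom called 1 of each list. At an unadjusted edgeR p below 0.05 there were 10 microglia and 9 oligodendrocyte markers. The sums of both lists were highest in ad libitum replicate 2, as were Akt2 and Pik3r1. The part of these cells in the values of Akt2 and Pik3r1 was not tested. Neuron markers, 7 in all, had sums of 4823 to 5168 CPM under fasting and 3947 to 5698 CPM ad libitum, and 0 were called by edgeR, DESeq2 or limma-voom, with 1 of 7 at an unadjusted p below 0.05. In bulk tissue, fewer cells of a type and less RNA per cell cannot be told apart.

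Leptomeningeal fibroblast markers, 12 in all, were highest in ad libitum replicate 3, the library high in Igf2. Their summed level was 91.7, 95.7 and 89.8 CPM in fasting replicates 1, 2 and 3, against 96.7, 132 and 180 CPM in ad libitum replicates 1, 2 and 3. Of the 12, 5 lay wholly below the ad libitum libraries and 0 wholly above, beside 15.0% and 12.5% of all genes. edgeR and limma-voom called 0 of them, beside 0.497% and 0.167%. DESeq2 called 5, beside 7.4%, and 8 had an unadjusted edgeR p below 0.05, beside 20.4%. The defining marker Dcn did not follow that order, at 15.9 to 18.6 CPM under fasting and 14.7 to 18.5 CPM ad libitum. Choroid plexus markers, 11 measured of 12, had sums of 60.9 to 76.7 CPM under fasting and 56.4 to 143 CPM ad libitum, with the highest value in ad libitum replicate 2. Ttr, the defining choroid plexus marker, was at 4.0 to 17.1 CPM under fasting and 9.93 to 73.1 CPM ad libitum. Astrocyte markers had sums of 2741 to 3032 CPM under fasting and 3034 to 4001 CPM ad libitum, highest in ad libitum replicate 3, and endothelial markers 242 to 257 CPM under fasting and 248 to 292 CPM ad libitum. Mural cell markers had sums of 220 to 239 CPM under fasting and 258 to 287 CPM ad libitum. Oligodendrocyte precursor markers had sums of 399 to 408 CPM under fasting and 393 to 436 CPM ad libitum. Wholly below lay 4 of 8 astrocyte, 3 of 9 endothelial, 6 of 9 mural cell and 1 of 6 precursor markers. Wholly above lay 1, 1, 0 and 0 of these lists. DESeq2 called 3, 3, 2 and 1 of them lower and 1, 1, 0 and 0 higher, and edgeR and limma-voom called 0. Ependymal markers went the other way: 6 of 6 had a log2 fold change above 0, with a median of 2.29. Of the 6, 3 lay wholly above the ad libitum libraries, beside 12.5% of all genes. edgeR and limma-voom called 0 of the 6, DESeq2 called 3, all higher, beside 7.4% of all genes in either direction. At an unadjusted edgeR p below 0.05 there were 4, beside 20.4%. Their sums were 37.8, 18.5 and 42.3 CPM in fasting replicates 1, 2 and 3, against 15.6, 21.8 and 17.4 CPM in ad libitum replicates 1, 2 and 3, so fasting replicates 1 and 3 were high and the groups overlapped. The defining marker Foxj1 was at 11.3 to 15.8 CPM under fasting and 11.7 to 14.6 CPM ad libitum. The part of these cells in the values of Igf2, Igfbp5 and Igfbp2 was not tested.

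**Figure D3:**
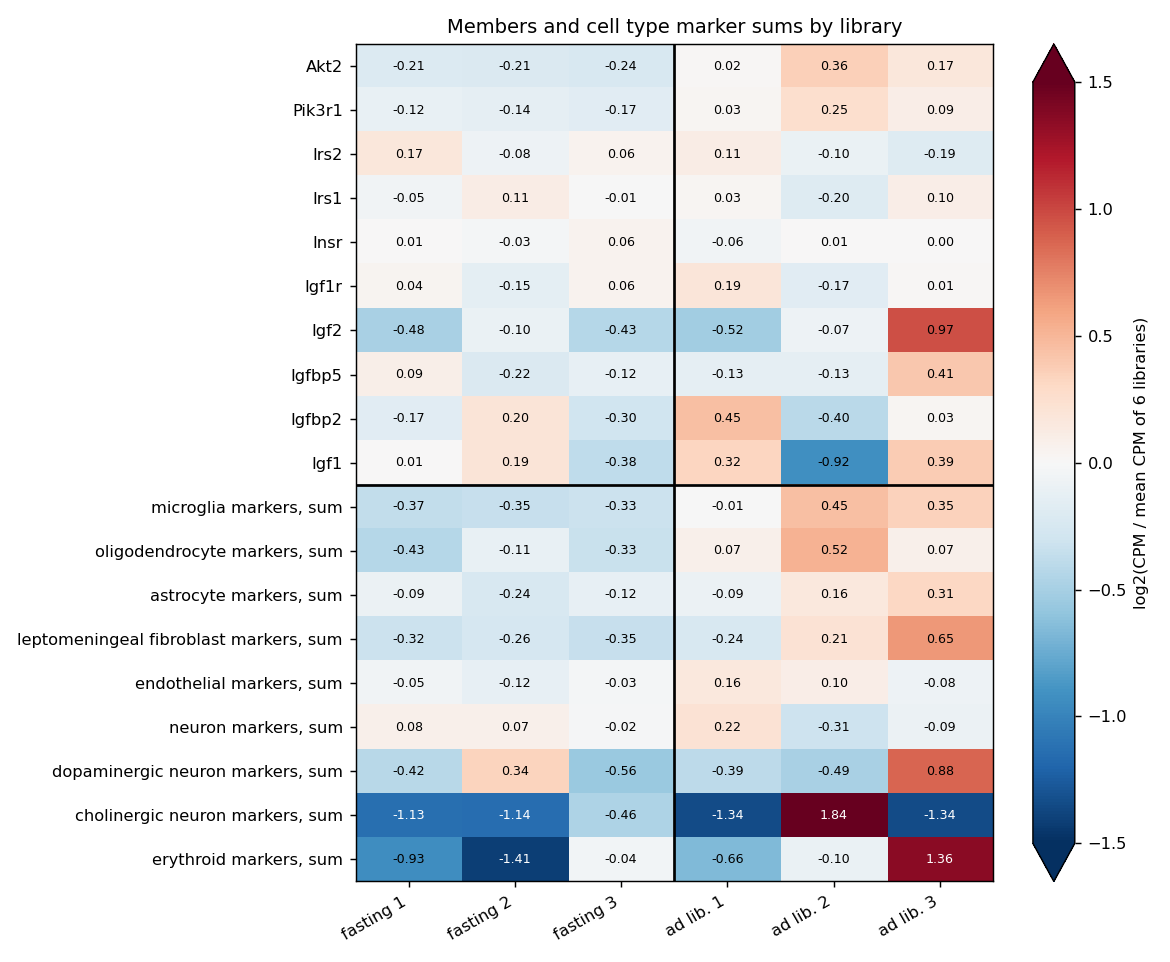
Log2 of the CPM of each library over the mean CPM of the 6 libraries (colour, and number in each field) for the 10 genes (upper rows) and for the summed CPM of cell type marker lists (lower rows), fasting libraries left of the line and ad libitum libraries right of it. Akt2 and Pik3r1 are below 0 in the 3 fasting libraries and above 0 in the 3 ad libitum libraries, like the oligodendrocyte sum, and Igf2 is highest in ad libitum replicate 3, as is the leptomeningeal sum.

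Levels of different genes were set side by side per kilobase of the longest annotated transcript. On that scale Igfbp5 was the most abundant member, at 35.5 ± 4.02 CPM per kilobase under fasting and 39.4 ± 8.99 CPM per kilobase ad libitum (SD, n = 3 each). Pik3r1, at 18.1 ± 0.323 under fasting and 21.8 ± 1.76 ad libitum, and Irs2, at 19.6 ± 1.67 under fasting and 18.2 ± 2.03 ad libitum, came next and did not differ from each other beyond their spread. Igfbp2, Igf2 and Akt2 followed at 15.2, 11.5 and 10.4 CPM per kilobase over the 6 libraries, with SDs of 3.50, 5.55 and 1.85, so the order of these neighbours lies within their spread. Insr (7.59, SD 0.199) and Igf1r (7.15, SD 0.668) did not differ beyond their spread, and Igf1 (2.56, SD 0.764) and Irs1 (2.37, SD 0.180) were the least abundant. The order depends on the transcript length used: with the median length of a gene's transcripts Pik3r1 came first, followed by Igf2 and Akt2, and Igfbp5 came after them, while Igf1 and Irs1 were the lowest by both lengths.

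Shares within the families were taken per kilobase of the longest transcript, and they depend on that length in the PI3-kinase and binding protein families. They rest on the same counts as the fold changes of the genes, so they are not separate evidence on diet. Irs2 held 72.6% ± 2.92 of the IRS family under fasting and 75.6% ± 6.64 ad libitum (SD, n = 3 each), and Irs1 held 8.96% ± 0.988 under fasting and 9.76% ± 0.918 ad libitum. Irs4, an X-linked member best known from the hypothalamus, held 18.2% ± 2.23 under fasting and 14.1% ± 6.17 ad libitum. Irs3 held 0.235% ± 0.0363 under fasting and 0.528% ± 0.111 ad libitum. It had only 5 to 8 counts in the fasting libraries and 11 to 16 in the ad libitum libraries, so its share is uncertain.

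Among the PI3-kinase regulatory subunits the shares of Pik3r1 did not overlap between diets, nor did its CPM, from which they are computed. Pik3r1 held 36.1%, 36.6% and 34.8% in fasting replicates 1, 2 and 3, against 38.0%, 40.9% and 39.4% in ad libitum replicates 1, 2 and 3. Pik3r2, which encodes p85 beta, held 41.3% ± 2.55 under fasting and 37.0% ± 2.56 ad libitum, and Pik3r3, which encodes p55 gamma, 22.9% ± 2.15 under fasting and 23.6% ± 1.74 ad libitum. About 23.7% of the sequence of Pik3r3 is shared with the overlapping gene Gm49337, so its share is uncertain. With the median transcript length Pik3r1 held 60.6% under fasting and 64.4% ad libitum, Pik3r2 28.5% under fasting and 24.7% ad libitum, and Pik3r3 11% under fasting and 10.9% ad libitum, so by that length Pik3r1 and not Pik3r2 was the largest under fasting. Among 6 binding proteins, Igfbp5 held 52.7% ± 3.93 under fasting and 51.6% ± 6.62 ad libitum, and Igfbp2 held 21.5% ± 4.08 under fasting and 21.1% ± 6.23 ad libitum. Igfbp7 held 13.9% ± 0.600 under fasting and 13.7% ± 3.18 ad libitum, and Igfbp4 held 4.97% ± 0.796 under fasting and 5.15% ± 1.33 ad libitum. With the median transcript length Igfbp4 held 18.2% under fasting and 18.8% ad libitum, and Igfbp5 44.9% under fasting and 44% ad libitum. By the longest transcript Igfbp3 held 5.22% ± 0.236 under fasting and 3.69% ± 0.674 ad libitum, and Igfbp6 held 1.74% ± 0.146 under fasting and 4.69% ± 1.89 ad libitum, without overlap in either.

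**Figure D4:**
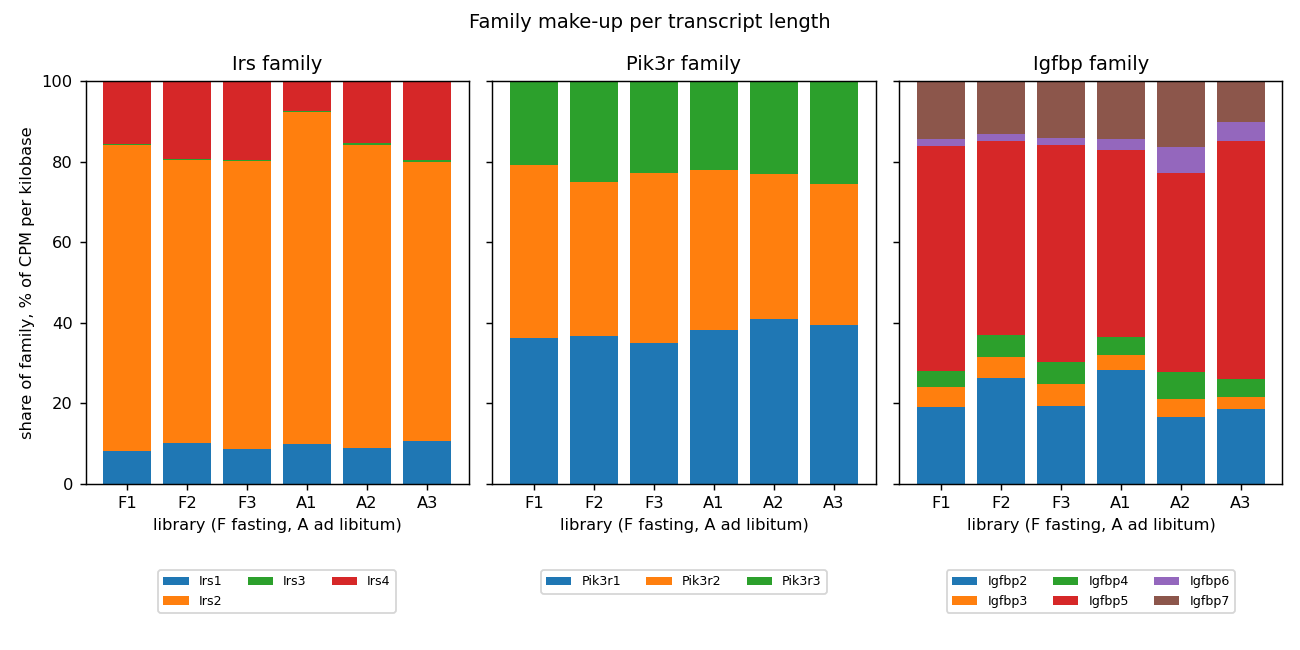
Share of each family's summed CPM per kilobase of longest transcript (vertical axis, percent) held by each gene in the 3 fasting libraries (F1 to F3, left) and the 3 ad libitum libraries (A1 to A3, right). Pik3r1 holds 34.8% to 36.6% of its family in the fasting libraries and 38.0% to 40.9% in the ad libitum libraries, while Irs2 holds most of the IRS family and Igfbp5 about as much as all other binding proteins together in both.

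The rest of the pathway was read from lists set by function, 84 genes of which 80 were tested. edgeR and limma-voom called 0 of the 80, beside 0.497% and 0.167% of all genes. DESeq2 called 10, 2 higher and 8 lower, beside 7.4% in either direction and 4.51% lower. At an unadjusted edgeR p below 0.05 there were 22, beside 20.4%. Without ad libitum replicate 1 edgeR called 9 of the 80, 2 higher and 7 lower, beside 6.18% in either direction and 3.89% lower. The median log2 fold change was -0.001 with 40 genes above 0 and 40 below, 16 lay wholly below and 9 wholly above the ad libitum libraries, beside 15.0% and 12.5% of all genes. Ins1 and Ins2, which encode insulin, were not among the genes of the count table, so they could not be tested. Igf2r, which clears IGF-2, was at 45.3 to 51.8 CPM under fasting and 45.9 to 48.4 CPM ad libitum. Insrr, an orphan receptor of the family, was under 1 CPM in all 6 libraries.

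Among 11 binding proteins and their proteases, 2 lay wholly below and 3 wholly above, beside 15.0% and 12.5% of all genes. Igfbp6, which prefers IGF-2, was at 1.5, 1.18 and 1.24 CPM in fasting replicates 1, 2 and 3, against 2.27, 5.02 and 4.49 CPM in ad libitum replicates 1, 2 and 3. The difference was -1.59 in log2 units (SE 0.31, edgeR adjusted p = 0.0685), and it was called by DESeq2 and, without ad libitum replicate 1, by edgeR. Igfbp3, the main carrier of IGFs in blood, was at 8.42 to 8.64 CPM under fasting and 6.09 to 7.25 CPM ad libitum, or 0.35 in log2 units (SE 0.10, edgeR adjusted p = 0.120). Igfbp3 and Igfbp6 had opposite signs, and edgeR called neither over all 6 libraries. DESeq2 also called Htra1 of this list, which was higher (0.17, DESeq2 adjusted p = 0.0470, against an edgeR adjusted p of 0.136).

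Of 14 adaptors, 3 lay wholly below and 2 wholly above, beside 15.0% and 12.5% of all genes. Gab1, which links receptors to PI3-kinase, was at 54.9, 64.0 and 57.4 CPM in fasting replicates 1, 2 and 3, against 85.5, 113 and 84.3 CPM in ad libitum replicates 1, 2 and 3 (-0.68 in log2 units, SE 0.13, edgeR adjusted p = 0.0685). Shc2, a neuronal adaptor of receptor tyrosine kinases, was at 38.5 to 41.8 CPM under fasting and 29.96 to 32.5 CPM ad libitum (0.34 in log2 units, SE 0.06, edgeR adjusted p = 0.0646). Of 13 PI3-kinase and AKT genes, 4 lay wholly below and 0 wholly above, beside 15.0% and 12.5% of all genes. Among the 4 were Pik3c2b, a class II PI3-kinase (-0.61, SE 0.15, edgeR adjusted p = 0.100), and Pik3cg, a catalytic subunit of blood-derived cells and microglia (-0.66, SE 0.20, edgeR adjusted p = 0.133). Pik3cg was at 3.19 to 3.99 CPM under fasting and 4.17 to 6.59 CPM ad libitum. DESeq2 called Gab1, Shc2, Pik3c2b and Pik3cg, and without ad libitum replicate 1 edgeR called Gab1, Shc2, Pik3cg and Pik3cd. Pik3cd, another gene of the PI3-kinase list, was higher in that fit (0.70, edgeR adjusted p = 0.0172). Over all 6 libraries its log2 fold change was 0.22 (edgeR adjusted p = 0.752). With the replicate block edgeR called Gab1 and Pik3c2b.

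Of 21 inhibitors, 4 lay wholly below and 2 wholly above, beside 15.0% and 12.5% of all genes. Enpp1, a membrane enzyme reported to restrain the insulin receptor, was at 10.8, 11.7 and 8.51 CPM in fasting replicates 1, 2 and 3, against 16.8, 18.3 and 18.7 CPM in ad libitum replicates 1, 2 and 3. The difference of -0.79 in log2 units (SE 0.12, edgeR adjusted p = 0.0568) had the smallest p of the 80 genes. Inppl1, the lipid phosphatase SHIP2, was at 25.99 to 27.4 CPM under fasting and 32.1 to 36.9 CPM ad libitum (-0.33, SE 0.07, edgeR adjusted p = 0.0732). Of 19 downstream genes 3 lay wholly below and 2 wholly above, beside the same 15.0% and 12.5%. Among these downstream genes the smallest p belonged to Foxo4, a FOXO factor (-0.35, SE 0.08, edgeR adjusted p = 0.0889), and Akt1s1, the AKT substrate PRAS40 (-0.15, SE 0.06, edgeR adjusted p = 0.203). DESeq2, and edgeR without ad libitum replicate 1, called Enpp1, Inppl1 and Foxo4. DESeq2 also called the inhibitor Phlpp1 (-0.27, DESeq2 adjusted p = 0.0221, against an edgeR adjusted p of 0.103). Without ad libitum replicate 1 edgeR also called the inhibitor Inpp5d (-0.62, edgeR adjusted p = 0.0292, against 0.180 over all 6 libraries). With the replicate block edgeR called Socs6, a suppressor of cytokine signalling protein, which was higher (0.65, edgeR adjusted p = 0.0299, against 0.261 with no block).

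Genes that FOXO factors are known to induce, a list of 18 that includes Irs2 and Insr, were split evenly by the sign of their change. edgeR and limma-voom called 0 of the 18, beside 0.497% and 0.167% of all genes. DESeq2 called 1, Fbxo32, beside 7.4%, and 5 had an unadjusted edgeR p below 0.05, beside 20.4%. The median log2 fold change was -0.02 with 9 genes above 0 and 9 below. Of the 18, 5 lay wholly below and 1 wholly above, beside 15.0% and 12.5% of all genes. Without ad libitum replicate 1 edgeR called 2, both lower, Fbxo32 and Cat, beside 6.18% of all genes in either direction and 3.89% lower. With the replicate block it called 1, beside 1.49% of all genes. That gene, Cited2, was higher (log2 fold change 0.59, edgeR adjusted p = 0.0433, against 0.338 with no block). Fbxo32, the muscle ubiquitin ligase atrogin-1, was at 22.4, 26.4 and 28.04 CPM in fasting replicates 1, 2 and 3, against 38.3, 47.9 and 36.8 CPM in ad libitum replicates 1, 2 and 3 (-0.68, SE 0.13, edgeR adjusted p = 0.0685). Cat, which encodes catalase, was at 54.0 to 57.0 CPM under fasting and 60.4 to 70.1 CPM ad libitum (-0.24, SE 0.07, edgeR adjusted p = 0.114).

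The growth hormone axis, which drives Igf1 in liver, was tested as 7 genes. edgeR and limma-voom called 0 of the 7, beside 0.497% and 0.167% of all genes. DESeq2 called 1, Ghrh, beside 7.4%, and 1 had an unadjusted edgeR p below 0.05, beside 20.4%. Ghrh, the hypothalamic releasing hormone, was at 0.887, 0.416 and 1.07 CPM in fasting replicates 1, 2 and 3, against 0.212, 0.268 and 0.256 CPM in ad libitum replicates 1, 2 and 3 (1.68 in log2 units, SE 0.40, edgeR adjusted p = 0.0931). The hypothalamic neuron markers beside it had sums of 113 to 147 CPM under fasting and 5.96 to 519.8 CPM ad libitum, and their part in the value of Ghrh was not tested. Jak2, the kinase of the growth hormone receptor, was at 42.3 to 47.5 CPM under fasting and 45.5 to 52.6 CPM ad libitum (-0.12, SE 0.07, edgeR adjusted p = 0.399).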

How the data were processed

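The deposited values are estimated counts of 19251 genes, whole numbers not scaled between libraries, from polyadenylated RNA made into NEBNext Ultra II Directional libraries, per the labels' protocols. Per the submitters' processing notes Salmon, DESeq2 1.40.2 and the build GRCm39 (mm39) were used. The sources used here do not say which annotation or strand setting was used or how the estimates were rounded. Rounding changed 0 values, and 0 columns were left unused.

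The fit ran on the whole table: filterByExpr kept 19109 genes and left 142 out, libraries were scaled with TMM, and the quasi-likelihood test of edgeR 4.0.16 (R 4.3.3) with robust shrinkage and no covariate was used. SE is the log2 fold change over the root of F. Alternatives were DESeq2 1.42.0, voom in limma 3.58.1, other filters, RLE factors, a replicate block and leaving out each library. p-values measure the spread between these samples, which may be technical. Libraries of a group differed beyond sampling noise (chi-square over its degrees of freedom at least 8.19), so none was a plain copy of another. That value cannot tell whether libraries of a group came from the same animal. Lengths and shared words of 31 bases came from GENCODE M21 (GRCm38). The members and lists were chosen with earlier results of these data known. Named were all 10 members and, of each list with none called, the 2 genes of smallest p, all measured genes of a family whose shares are given, the 3 genes most like Akt2 and Pik3r1, and the first 1 or 2 genes of a marker list. Igf2os, Cited2, Socs6, Pik3cd, Phlpp1, Inpp5d and Htra1 were chosen after their values were seen. Shares within the AKT family are not reported here.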

Additional observations from a re-analysis of the deposited data

How the results depend on the processing

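The test called 95 genes of the table, and 1395 with DESeq2, 32 with limma-voom, 9 without robust shrinkage and 0 to 1187 with 1 library left out. Dropping an ad libitum library gave 1187 calls for replicate 1, 45 for replicate 2 and 1 for replicate 3. Dropping a fasting library gave 68 for replicate 2 and 0 for replicates 1 and 3, where edgeR gave 2452 and 2495 genes at an unadjusted p below 0.05. Calls were 28 higher and 67 lower, and 17 higher and 15 lower with limma-voom. It called 0 of the 10 members, and 2 with DESeq2 and 0 to 2 with 1 library left out. Of the other pathway genes it called 0, and 10 with DESeq2 and 0 to 9 with 1 library left out. Of the FOXO-induced genes it called 0, and 1 with DESeq2 and 0 to 2 with 1 library left out. RLE factors and the other filters on low counts left each of these counts within 1.5 times. The replicate block called 285 genes of the table, 0 members, 3 other pathway genes (1 higher, 2 lower) and 1 FOXO-induced gene, which was higher. Libraries of the same number did not all deviate together: their correlations were 0.206, -0.0386 and -0.106 for replicates 1, 2 and 3. The libraries of replicate 1 correlated best with each other, and the rest correlated best with a library of another number. These values do not show a pairing by number, and so few libraries cannot exclude one.

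The log2 fold change kept its sign in all 13 alternatives for 5 of the 10 members, Akt2, Pik3r1, Igf2, Irs2 and Insr. With 1 library left out it ran from -0.40 to 0.13 for Igf1, from -0.34 to 0.093 for Igfbp2, from -0.25 to 0.055 for Igfbp5, from -0.12 to 0.062 for Igf1r and from -0.052 to 0.098 for Irs1, and for Igf1 it was 0.013 with limma-voom. Of 16 other named genes 15 kept their sign, and Igf2r ran from -0.0066 to 0.083 with 1 library left out. The median level of the members was 10.95 CPM per kilobase with the longest transcript and 41.6 with the median length. Counts of the members ran from 463 to 13985 per library, and counting error was not separated from the spread between libraries.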
